A study of Mus musculus with 4 samples.

Results

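The cytosolic ribosomal protein genes, which encode the protein part of the ribosomes outside mitochondria, were examined in whole kidneys of C57BL/6 mice with and without glomerulonephritis (GN) and with and without captopril. They were chosen by symbol, as every gene named Rpl or Rps with a number or a p, plus Rpsa, leaving out the Rps6k kinases and the pseudogenes. Of 12394 genes with a probe set of a single symbol, 48 met this rule, 26 named as large subunit and 22 as small subunit genes. Another 30 ribosomal protein symbols occurred on the array only in probe sets that list several symbols, and no gene is named from those. The series holds 4 arrays, each from whole kidney labelled male and aged 17 weeks, 1 array for each group, and each group had 6 mice. The labels leave unsaid whether an array held a single kidney or a pool. Saline+Water mice received intraperitoneal 0.15 M NaCl and drank water, and Saline+Captopril mice received the same injections with captopril, an inhibitor of angiotensin converting enzyme, at 100 mg/kg/day in the drinking water. GN+Water mice received 10 mg of horse spleen apoferritin on 5 days a week and 100 µg of lipopolysaccharide 3 times a week in place of saline, and GN+Captopril mice received both the GN injections and captopril. Injections started at about 8 weeks of age and lasted 6 weeks, and kidneys were taken after 9 weeks. The GN groups therefore carry repeated lipopolysaccharide as well as the antigen.

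Ribosomal proteins assemble with ribosomal RNA into a large subunit, which forms peptide bonds, and a small subunit, which decodes the messenger RNA. Their mRNAs are among the most abundant of a cell and are made in similar amounts. Most begin with a C followed by a run of pyrimidines, the terminal oligopyrimidine tract, through which the kinase mTOR and the protein Larp1 control their translation. In the kidney, growth of tubules is accompanied by more ribosomes and by phosphorylation of ribosomal protein S6, which is not measured by an mRNA level.

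The start sites of 8 members are shown because the tract named above can be read from them directly. The windows, from RefSeq annotation of GRCm38.p6, hold 20 bases before the annotated start and 20 from it, and capitals mark the unbroken run of C or T that begins at the start. The first 6 begin with such a run and were picked from the 8 of 42 members with a match counted below. The last 2, the related genes Rpl3l and Rps27l, do not. Members that are no such relatives, among them Rpl11, Rplp0 and Rps3, also have no run at the annotated start.
Rps6 (chr4:86857348-86857387, minus strand): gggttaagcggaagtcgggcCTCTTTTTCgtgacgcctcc
Rps10 (chr17:27635225-27635264, minus strand): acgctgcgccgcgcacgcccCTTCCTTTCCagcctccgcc
Rps18 (chr17:33955646-33955685, minus strand): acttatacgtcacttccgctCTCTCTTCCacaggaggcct
Rpl35 (chr2:39005112-39005151, minus strand): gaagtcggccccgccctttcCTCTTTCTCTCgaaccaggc
Rpl38 (chr11:114668560-114668599, plus strand): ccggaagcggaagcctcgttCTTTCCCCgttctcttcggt
Rplp2 (chr7:141447631-141447670, plus strand): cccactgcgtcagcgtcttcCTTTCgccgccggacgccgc
Rpl3l (chr17:24727806-24727845, plus strand): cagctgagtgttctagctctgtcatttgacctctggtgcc
Rps27l (chr9:66946066-66946105, plus strand): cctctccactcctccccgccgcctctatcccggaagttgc

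Of the 48 members, 42 matched the RefSeq promoter table. At the annotated start, 8 of the 42 (19.0%) had a C followed by 4 bases that were each C or T, against 3.01% of all 27025 genes of the table and 0 of 65 matched mitochondrial ribosomal protein genes. Within 10 bases on either side of the start the figures were 27 of 42 (64.3%) and 34.4%, with 29 of 65 (44.6%) for the mitochondrial genes. In the 250 bases before the start, on either strand, the letters CCGGAA occurred in 22 of 42 members (52.4%) and in 13.6% of all genes, while 38.5% of the mitochondrial ribosomal protein genes held them. Among the 17492 protein-coding genes of the table CCGGAA occurred in 17.0%, and the tract in 2.67% at the start and 34.9% within 10 bases. GGGCGG occurred in 47.6% of members, 35.4% of all genes and 45.8% of protein-coding genes. GCCATC occurred in 11.9%, 12.2% and 11.3%, and TATAAA in 9.52%, 14.3% and 13.7%. These matches describe letters only, and an annotated start can lie some bases from the one used in kidney.

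Values are deposited log2 probe set values, so a difference of 1 is 2-fold, and there was no replicate, so no difference below has an error or a test. Each member is compared with itself on another array, since levels of different probe sets cannot be set against each other. A gene passed the expression filter when it had a mean of at least 6.27 (percentile 40 of the probe set means), which left 8207 genes and 45 members. The array labelled GN+Water carried Xist at 8.97 against 5.02 to 5.21 elsewhere and the Y-linked Eif2s3y at 3.43 against 8.02 to 8.29, which goes against its male label. On Saline+Water the median of 18 spike-in probe sets was 10.8, against 7.46 to 7.89 elsewhere, and the median of 3 probe sets for 18S ribosomal RNA was 6.32, against 7.74 to 8.30. The 9 kidney markers on the array had a mean of 11.9 on Saline+Water and were not near background on any array. The part of these differences between arrays in the results below was not tested.

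On the array labelled GN+Water the ribosomal protein genes stood highest as a group. It held the highest of the 4 levels for 30 of 45 members, against 27.6% of all genes, and the lowest for 3, against 30.6%. Relative to each gene's own mean over the 4 arrays, the median over members was 0.12 on this array, −0.10 on Saline+Water, −0.03 on Saline+Captopril and −0.01 on GN+Captopril. For all genes that median lay between −0.01 and 0.02 on every array. Saline+Water held the lowest level of 27 members, against 42.0% of all genes, and the highest of 11, against 40.4%, so members were spread to both sides on it. Most probe sets were bright: 34 of the 45 had a mean of at least 12, a bound chosen after the levels had been seen, while the brightest probe set of any array lay between 14.6 and 14.7. How far signals this close to the top of the scale still follow the amount of RNA was not tested.

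**Figure D1:**
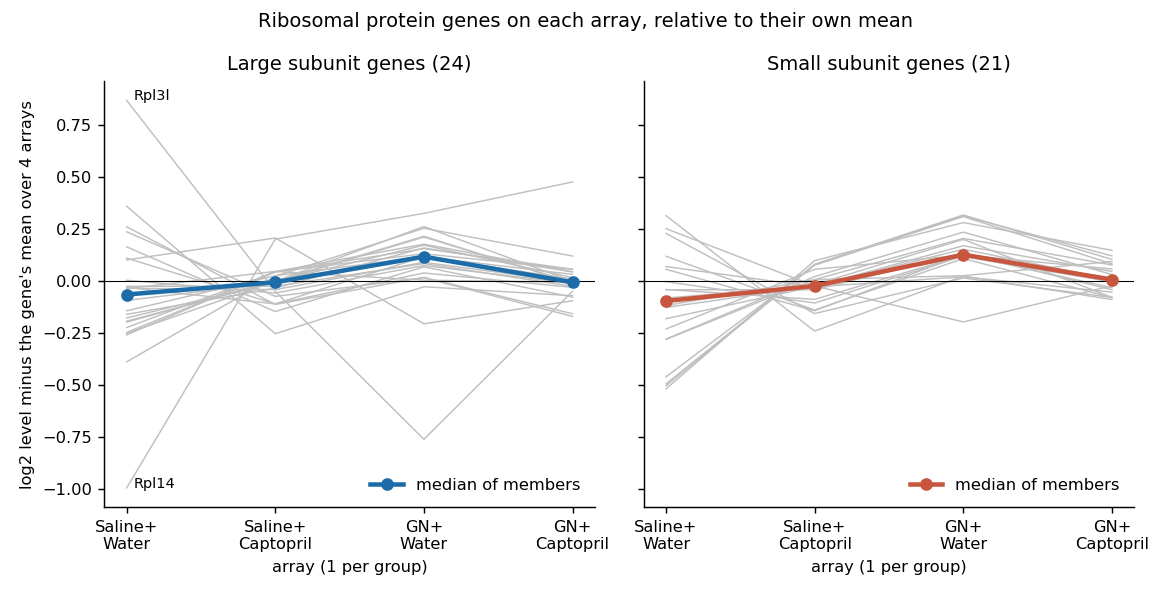
Log2 level of each of 45 members minus its own mean over the 4 arrays (grey lines), by array, with large subunit genes on the left and small subunit genes on the right; the thick line joins the medians. Both medians are highest on the array labelled GN+Water, at 0.11 and 0.12, and the members are most spread on Saline+Water.

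The comparison of GN with saline in mice on water gave a median of 0.20 over the 45 members, against 0.00 over all genes, with quartiles of −0.01 and 0.40. Higher levels were seen for 33 members, against 49.7% of all genes, and 6 were at least 1.5-fold higher, against 19.6%, so the share past 1.5-fold (6 of 45) was not above that of all genes. At a lower threshold, a log2 difference of 0.32, the members higher were 17 and lower 3, against 30.2% and 27.8% of all genes. At least 1.5-fold lower was 1 member, Rpl3l, against 15.3%, by a dim probe set that lay above the filter of 6.27 only on Saline+Water. The members past 1.5-fold were Rpl14, Rps20, Rps4x, Rps6, Rps14 and Rpl37a. When Saline+Captopril served as the baseline instead, 0 of 45 members were at least 1.5-fold higher (all genes 6.31%) and Rpl3l alone was lower (3.03%), while 41 of 45 were higher by any amount (43.9%) with a median of 0.18. When GN+Captopril was the GN array instead, the median over members was 0.08 with 62.2% of them higher. With GN+Water and Saline+Water kept, the median over the 14 members with a probe set of no shared suffix was 0.09.

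Among the small subunit genes, Rps20 was at 12.05 on Saline+Water, 12.63 on Saline+Captopril, 12.87 on the array labelled GN+Water, with 12.68 on GN+Captopril. Saline+Water was the low array, and the GN difference on water was 0.82, or 1.76-fold. Rps4x, an X-linked gene, had 12.20, 12.77, 13.01 and 12.80 in the same order of arrays, a 1.76-fold difference with Saline+Water again lowest. Its second probe set, dim at a mean of 5.05 and below the filter, had −1.35, and with all probe sets averaged the difference was −0.27. Rps14, whose loss impairs red cell formation in a human myelodysplastic syndrome, had 12.64, 13.18, 13.41 and 13.19, a 1.71-fold difference, and both of its probe sets differed alike, by 0.77 and 0.78. Rps6, the substrate of the S6 kinases whose start site is shown above, had 7.87, 8.49, 8.67 and 8.54, a 1.74-fold difference. For all 4 genes the array labelled GN+Water was highest and Saline+Water lowest, with both captopril arrays between them and within 0.05 of each other.

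Among the large subunit genes, Rpl37a was at 13.21 on Saline+Water, 13.62 on Saline+Captopril, 13.85 on the array labelled GN+Water, with 13.72 on GN+Captopril, a GN difference on water of 0.64. A second bright probe set of Rpl37a, with a mean of 13.1, gave 0.00 for the same pair. Rpl14 had the largest difference of the members that were higher, at 1.32, with levels of 5.51, 6.70, 6.83 and 6.98. That probe set is dim, and its low value is that of Saline+Water, since relative to Saline+Captopril the difference was 0.12. Rpl7 (12.22, 12.47, 12.73 and 12.47) and Rpl38 (12.86, 13.06, 13.27 and 13.05), a protein needed for translation of some Hox mRNAs, were 1.43-fold and 1.33-fold higher. Rpl11, which binds Mdm2 when ribosome assembly fails, was at 12.65, 12.83, 13.00 and 12.85. For these 3 genes the array labelled GN+Water was highest and Saline+Water lowest, with the captopril arrays within 0.02 of each other.

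A smaller set of members pointed the other way in this comparison, not all of them by every probe set. Rpl41, which encodes a very short peptide of the large subunit, had 13.64, 13.02, 13.25 and 13.21, a GN difference on water of −0.39. Rps18 had 13.15, 12.60, 12.86 and 12.75, a difference of −0.29, and Rps7 had 13.16, 12.78, 12.95 and 12.85, a difference of −0.21. A second bright probe set of Rpl41 had −0.68, but of Rps18 another bright one had 0.42, and the other one of Rps7 had 0.00. By the probe sets used, Saline+Water was the highest array for these 3 genes. Among the other 3 arrays the array labelled GN+Water was again on top, as it was for Rps20 and Rps4x. Against Saline+Captopril it was higher by 0.23 for Rpl41, 0.26 for Rps18 and 0.17 for Rps7.

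**Figure D2:**
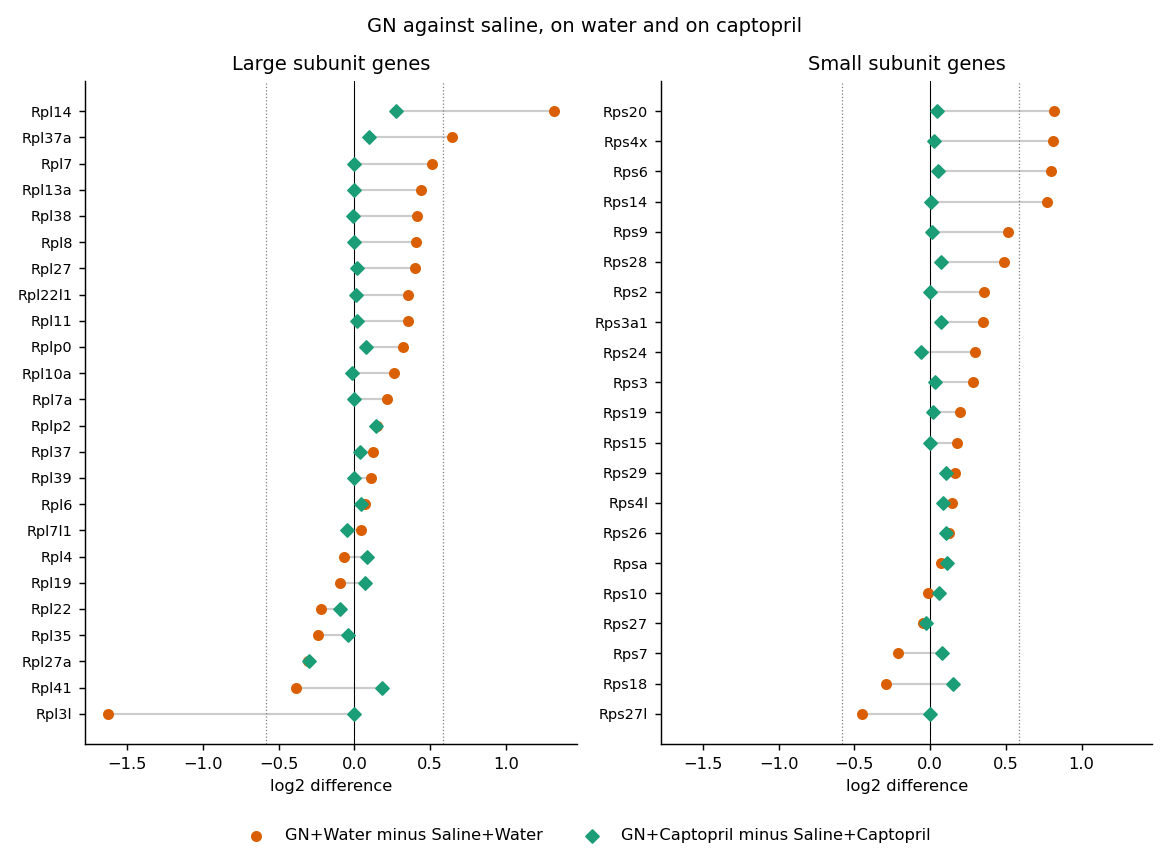
Log2 difference of GN minus saline for each of the 45 members on water (circles) and on captopril (diamonds), sorted within each subunit by the difference on water; dotted lines mark 1.5-fold. On water the differences run from −1.63 for Rpl3l to 1.32 for Rpl14, while on captopril they all lie between −0.30 and 0.28.

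The comparison of GN with saline in mice on captopril uses neither the array with discordant sex-linked genes nor the one with high spike-ins, and here the ribosomal protein genes hardly differed. Their median was 0.02, against 0.00 over all genes, with quartiles of 0.00 and 0.08. Higher by any amount were 30 of 45 members, against 47.8% of all genes, 11 were lower and 4 had identical values on both arrays. At least 1.5-fold higher were 0 members, against 1.85%, and at least 1.5-fold lower 0, against 0.207%. The largest differences were 0.28 for Rpl14, from 6.70 to 6.98, and 0.18 for Rpl41, from 13.02 to 13.21. Next came Rps18 at 0.15 and Rplp2 at 0.14. Lowest was Rpl27a at −0.30, from 7.85 to 7.55, followed by Rpl22 at −0.10. Among all 22690 probe sets 7.62% had exactly the same value on these 2 arrays. Identical members were Rpl7, Rps15, Rpl39 and Rpl3l, and Rpl12 below the filter. Between the array labelled GN+Water and any other array no member had identical values.

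The comparison of captopril with water in GN mice gave small differences that nearly all had the same sign. With captopril, 40 of 45 members were lower, against 44.8% of all genes, with a median of −0.12 against 0.00. The quartiles of the members were −0.18 and −0.09, a narrower range than the −0.13 and 0.16 of all genes. At least 1.5-fold lower were 0 members, against 4.52%, and 1 was at least 1.5-fold higher, Rpl3l, against 3.7%. Both of its levels here, 5.54 and 6.26, lay below the filter of 6.27. The lowest differences were −0.28 for Rps24, one of the genes mutated in Diamond-Blackfan anaemia, with levels of 12.97 and 12.69 (its other probe sets past the filter had −0.05 to −0.33), and −0.26 for Rpl7. Rps14 followed at −0.23 and Rpl38 at −0.22. The 5 members that were higher on GN+Captopril were Rpl3l, Rps27l, Rpl14, Rpl27a and Rps4l, of which 3 bear the name of a relative of another ribosomal protein gene. Every value here rests on the single array whose sex-linked genes go against its label. When Saline+Captopril was set against it in place of GN+Captopril, the median was −0.18.

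Different probe sets of a gene mostly gave the same sign in this comparison. In 18 of 19 genes with more than 1 probe set past the filter, all of them pointed the same way, Rpl13a being the exception. The median spread between the probe sets of a gene was 0.08. Of the 80 probe sets of members past the filter, 72 were lower (all genes 44.8%), so like signs within a gene follow in part from that. Of the 102 probe sets that list a ribosomal protein symbol together with others, 83 were lower and 17 higher, with a median of −0.11. For GN on water all probe sets of a gene had the same sign in 11 of the 19 genes, with a median spread of 0.37. For GN on captopril they did in 10, with a median spread of 0.08. In these counts a difference of exactly 0 is a sign of its own, as in Rpl7, Rps10 and Rps15 for GN on captopril. The sign of a single gene in those comparisons could thus depend on the probe set. The 102 probe sets share the 2 arrays and in part the sequence of the named members, so they are no independent replicate.

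The comparison of captopril with water in saline mice gave mixed signs. Its median was 0.09, against 0.01 over all genes, or 0.03 after quantile and 0.02 after cyclic loess scaling, with 26 of 45 members higher, against 50.9%, 17 lower and 2 identical. At least 1.5-fold higher were 2 members, Rpl14 (2.29-fold) and Rps6 (1.53-fold), against 15.6% of all genes, and at least 1.5-fold lower were 2, Rpl3l (1.89-fold) and Rpl41 (1.53-fold), against 10.2%. Rps20 and Rps4x, both higher by 0.58, lay just under the threshold, and Rps18 was 1.47-fold lower. All probe sets of a gene had the same sign in 9 of 19 genes, with a median spread of 0.33. For Rps18, 2 of 3 probe sets past the filter were lower, by 0.56 and 0.75, and 1 was higher, by 0.33. For Rps9 a probe set other than the one used was higher by 1.75, against 0.30 for the one used. Every value here rests on Saline+Water, the array with high spike-ins.

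**Figure D3:**
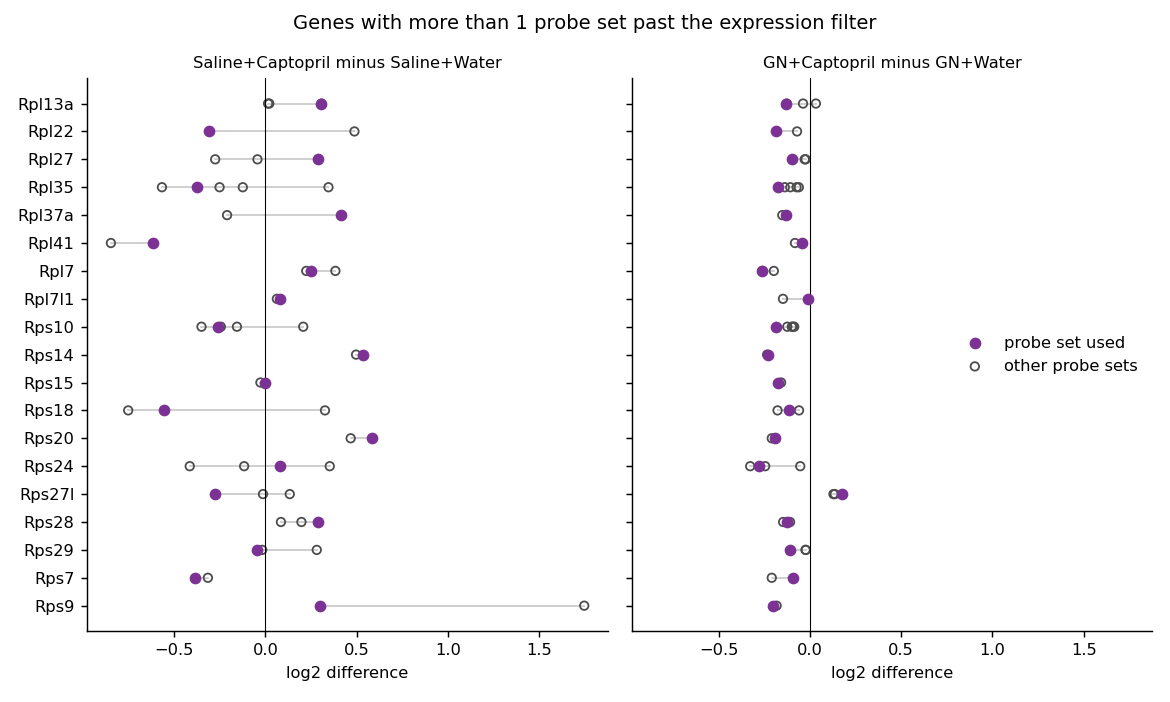
Log2 difference for every probe set past the filter in the 19 members with more than 1, captopril minus water in saline mice (left) and in GN mice (right); filled points are the probe sets used. On the left all probe sets of a gene had the same sign in 9 genes, and on the right in 18, with Rps27l on the other side of 0 from most of the others.

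Large and small subunit genes had similar medians on each array. Relative to their own means, large subunit genes had medians of −0.07, −0.01, 0.11 and −0.01 on Saline+Water, Saline+Captopril, the array labelled GN+Water and GN+Captopril, and small subunit genes −0.10, −0.03, 0.12 and 0.00. The gap between the subunits was at most 0.03 on each array. In differences, the large subunit median minus the small subunit median was −0.02 for GN on water, −0.04 for GN on captopril, 0.02 for captopril in saline mice and 0.02 for captopril in GN mice. For GN on water the quartiles were −0.08 and 0.40 for the large and 0.07 and 0.49 for the small subunit. For GN on captopril the widths between quartiles were only 0.08 and 0.07. There 12 of 24 large but 18 of 21 small subunit genes were higher, against 47.8% of all genes. In the comparisons that use Saline+Water the sign of the gap turned with the settings: for GN on water it was −0.12 with means in place of medians, −0.11 with the lowest probe set past the filter, −0.10 with no filter and 0.04 after cyclic loess scaling, and for captopril in saline mice it ran from −0.06 to 0.08. Past 1.5-fold for GN on water were 2 higher and 1 lower of the 24 large subunit genes, and 4 higher of the 21 small. Of all genes 19.6% were higher and 15.3% lower, so neither subunit was above these shares.

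The stalk of the large subunit, which recruits elongation factors, is built from Rplp0, Rplp1 and Rplp2, of which Rplp0 and Rplp2 had a probe set of a single symbol. Rplp0, the anchor of the stalk, had 12.93 on Saline+Water, 13.05 on Saline+Captopril, 13.25 on the array labelled GN+Water, with 13.13 on GN+Captopril. Rplp2 had 12.61, 12.53, 12.76 and 12.67. Both were highest on the array labelled GN+Water, with a GN difference on water of 0.32 and 0.15, and on captopril of 0.08 and 0.14. Rpsa, a small subunit protein also known as the laminin receptor precursor, had 12.34, 12.14, 12.41 and 12.25, and differed by 0.07 and 0.11. Fau, which encodes a small subunit protein outside the naming rule, had 12.41, 12.43, 12.57 and 12.43. Its order was that of the group, with the array labelled GN+Water on top.

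Genes named as relatives of another ribosomal protein gene were mixed in pattern. Rpl3l, a relative of Rpl3 known from skeletal and heart muscle, was at 7.17 on Saline+Water, 6.26 on both captopril arrays and 5.54 on the array labelled GN+Water. Relative to that last array, Saline+Water was 3.10-fold and GN+Captopril 1.64-fold higher. Rps27l, a target of p53, was at 12.44, 12.16, 11.99 and 12.16, lowest on the same array. Its 3 probe sets had GN differences on water of −0.08, −0.18 and −0.45. Rpl22l1, a relative of Rpl22, followed the group instead, at 10.76, 11.03, 11.11 and 11.04, while Rpl22 itself was highest on Saline+Water, at 11.65, 11.34, 11.43 and 11.24. A dimmer probe set of Rpl22 went the other way, with a GN difference on water of 0.60. Rpl7l1, at 9.53 to 9.61, had the smallest range of the members past the filter. Rps4l, a relative of Rps4x, lay between 8.55 and 8.76. Over the 5 such members past the filter the median was 0.07 for captopril in GN mice, with 2 lower and 3 higher, against −0.13 over the other 40, of which 38 were lower.

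Some members were represented only by a dim probe set. Rpl12 (4.69 to 4.78) and Rpl39l (3.87 to 4.13), a relative of Rpl39 known from testis, were the dimmest; Rpl39l was near background on all 4 arrays and Rpl12 on Saline+Water, where near background means no brighter than 90% of 27 negative-control probe sets. Rps25 was at 5.33, 6.15, 6.11 and 6.25, with Saline+Water lowest, and these 3 did not pass the filter. Rpl39, an X-linked gene whose protein lines the exit tunnel, was at 6.63 on 3 arrays and 6.74 on the array labelled GN+Water. Rps27 lay between 6.68 and 6.80 and Rpl27a between 7.44 and 7.85, lowest on the array labelled GN+Water. Rpl3l, with a mean of 6.31, lay above the filter of 6.27 only on Saline+Water. Whether these dim probe sets read the main transcript of their gene was not tested. Over the 34 members with a mean of at least 12, 33 were lower with captopril in GN mice, with a median of −0.13, against 106 of 268 other genes that bright, with a median of 0.03.

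Other genes of protein synthesis were read from lists of symbols. Of 12 elongation factors and other oligopyrimidine mRNAs, 9 were higher in GN on water, against 49.7% of all genes, with a median of 0.21. Of these, 3 were at least 1.5-fold higher, against 19.6%. For captopril in GN mice 9 of the 12 were lower, against 44.8%, with a median of −0.03. Pabpc1, the cytoplasmic poly(A)-binding protein, was at 11.52, 12.22, 12.13 and 12.10, lowest on Saline+Water. Vim, an intermediate filament gene also listed among such mRNAs, was at 8.92, 8.82, 10.24 and 9.68 and is known as a gene of mesenchymal and injured cells. The 33 genes taken by symbol as initiation factors include Eif4ebp1, Eif4ebp2 and Eif4enif1, and the Y-linked Eif2s3y. For captopril in GN mice 16 of the 33 were higher and 15 lower, against 44.8% of all genes lower, with a median of 0.00. For ribosome biogenesis genes the median was 0.03 over 35 genes in that comparison, with Nhp2 at 9.92 and 10.88, and for regulators such as Mtor (9.46 and 10.16) it was 0.03 over 15. Rps6kb2, an S6 kinase gene, was at 8.46, 7.35, 7.04 and 7.45, a GN difference on water of −1.42. Gabpa, another of the regulators, went the other way, at 6.89, 8.32, 8.32 and 8.48, a difference of 1.43. Of the 15 regulators 5 were higher and 10 lower in GN on water, against 49.7% of all genes higher, with a median of −0.20.

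The ribosomal proteins of mitochondria, encoded by other nuclear genes, had another balance of signs. For captopril in GN mice 53 of 74 were higher and 18 lower, against 44.8% of all genes lower, with a median of 0.08. For GN on water 44 were lower and 30 higher, against 49.7% of all genes higher, with a median of −0.06. The 38 genes taken by symbol as proteasome subunits, Psmc3ip among them, had a median of 0.10 for captopril in GN mice. Of these, 30 were higher, against 4157 of all 8207 genes. Respiratory chain subunits leaned the same way as the cytosolic ribosomal proteins there, with 58 of 80 lower, against 44.8%, and a median of −0.05. Taken by symbol, these 80 include the assembly factors Sdhaf1, Sdhaf2 and Sdhaf4. With 1 array per group the differences between these lists have no test.

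**Figure D4:**
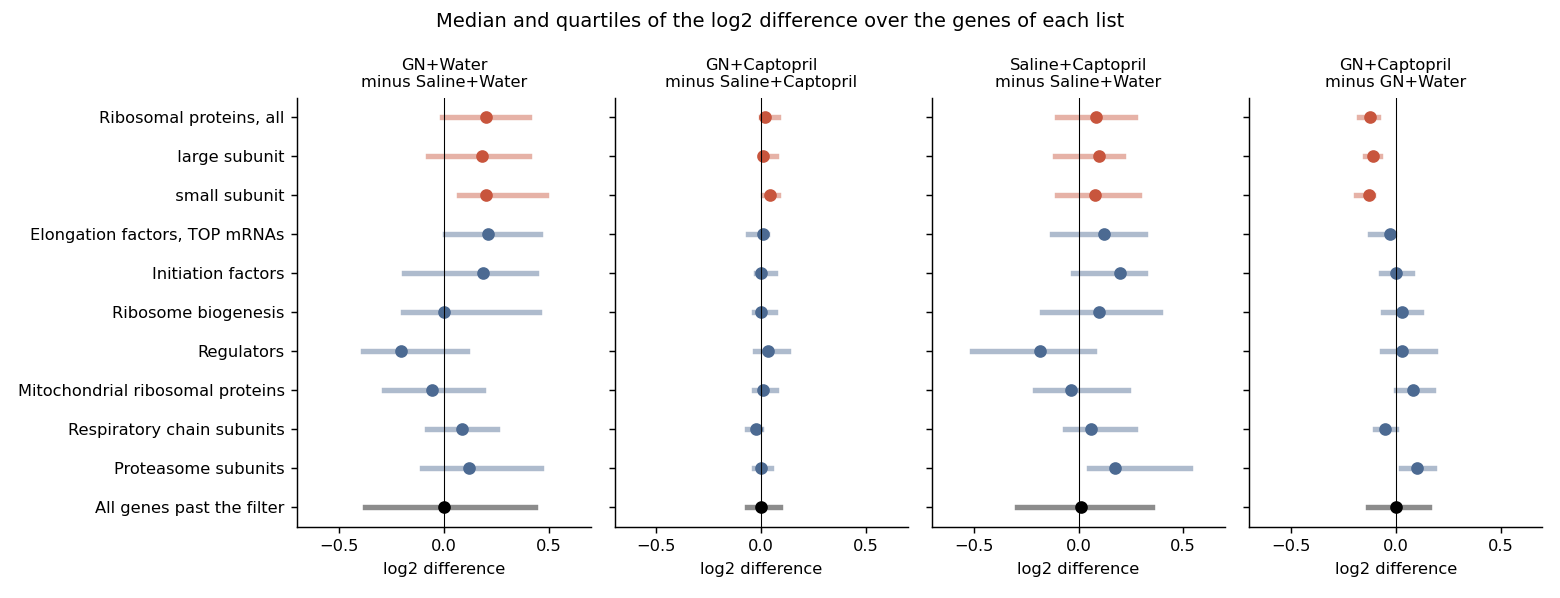
Median (points) and quartiles (bars) of the log2 difference over the genes of each list past the filter, in the 4 comparisons; lists are as named on the left, cytosolic ribosomal proteins in red and all genes in black. In the panel on the right the quartiles of the cytosolic ribosomal proteins lie wholly below 0, at −0.18 and −0.09, with medians of 0.08 for mitochondrial ribosomal proteins and 0.10 for proteasome subunits.

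Markers of macrophages and plasma cells were high on both GN arrays. All 12 macrophage markers were at least 1.5-fold higher in GN on water (all genes 19.6%) and 10 of 12 in GN on captopril (1.85%). For captopril in GN mice 9 of 12 were at least 1.5-fold lower (4.52%). Their mean level was 7.59 on Saline+Water, 7.62 on Saline+Captopril, 9.62 on the array labelled GN+Water, with 8.86 on GN+Captopril. Plasma cell markers had means of 6.73, 7.23, 11.6 and 10.1 over 6 genes, with Jchain near background on Saline+Water, and B and T lymphocyte markers 5.98, 5.89, 6.57 and 6.18 over 11. For GN on captopril the median difference was 1.17 over macrophage and 3.52 over plasma cell markers, beside a median of 0.02 over the ribosomal protein genes. Granulocyte markers were lower in GN on water, 3 of 4 at least 1.5-fold (all genes 15.3%), with a median of −0.66. In GN on captopril they went the other way, with a median of 0.26, and 2 of 4 passed 1.5-fold upward (all genes 1.85%). Their mean was highest on Saline+Water, at 6.11. Captopril in saline mice gave them a median of −1.03, and 3 of 4 passed 1.5-fold downward (all genes 10.2%). All levels of these 4 granulocyte markers lay below the filter of 6.27, except S100a9 on Saline+Water, at 7.19. The shares of all genes beside them cover only genes past that filter. Adipose, adrenal and granulocyte markers had means of 7.96 to 8.84, 5.68 to 6.30 and 5.10 to 6.11. The 2 erythroid markers on the array had means of 6.28 to 6.45, but 1 of them, Hba-a1, was near background on all 4 arrays. Lep, an adipose marker, was near background on every array but Saline+Water. The part of these cells in the ribosomal protein values was not tested, and in whole kidney a change in cell numbers and a change in RNA per cell cannot be told apart.

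Members were last split by the pyrimidine match at the annotated start. For captopril in GN mice the median was −0.12 over the 8 with a match and −0.12 over the 31 without, past the filter. For GN on water the medians were 0.07 and 0.20, with quartiles of −0.10 and 0.51 against −0.02 and 0.35. Rps6 and Rps18, both with a long run of C and T in the windows shown above, lay at 0.80 and −0.29 in that comparison.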

How the data were processed

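Total RNA of whole kidney was hybridised to Affymetrix arrays, 1 per group. The authors deposited log2 values, a scale read from their range, for 22690 probe sets. GCOS and RMA are named in the submitters' processing notes; for normalisation no more is recorded in those notes. Array medians were 6.93 to 6.99.

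Symbols came from the platform annotation and were updated by Entrez ID: 20393 probe sets had 1 symbol, 691 several and 1606 none. A gene took its probe set with the highest mean. Differences between 2 arrays were counted at 1.5-fold. With 1 array per group no test was run. Members and lists were chosen with earlier results of these data known. Named members were those past 1.5-fold in any comparison, the 4 highest and 4 lowest of each, the 3 of smallest range, the stalk genes, Rpsa, Fau and paralog pairs; other lists gave up to 3 genes. Rpl11, Rps9, Rps15 and Rpl13a, and the list genes Pabpc1, Vim, Nhp2, Mtor and Jchain where outside that rule, were named after their values were seen. Alternatives changed the filter, scaling (limma 3.58.1), probe set choice, fold threshold, members and arrays. The counting was tested on simulated data.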

Additional observations from a re-analysis of the deposited data

Results flagged for a closer look

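The captopril difference went opposite ways in saline and in GN mice for the median over the ribosomal protein genes, which was 0.09 in saline mice and −0.12 in GN mice, a gap of −0.21. On the saline side the median was 0.03 after quantile and 0.02 after cyclic loess scaling, so little of that side was left. Rpl3l also went opposite ways, lower by 0.92 in saline mice and higher by 0.71 in GN mice. Its gap of 1.63 comes with identical values on both captopril arrays. Its probe set is dim, with a mean of 6.31, and lay above the filter of 6.27 only on Saline+Water. Each side is a single pair of arrays, and the difference was not tested.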

How the results depend on the processing

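Of 17 alternatives, 15 were planned and 2 were chosen after seeing the data. Over those that bear on it the median of the members, or their mean where means replaced medians, stayed between the following bounds. For captopril in GN mice they were −0.18, with Saline+Captopril in place of GN+Captopril, and −0.10, the mean over members. For GN on water they were 0.08 and 0.24, for captopril in saline mice 0.02 and 0.09, and for GN on captopril −0.01 and 0.05. For GN on water the median was 0.0899 without probe sets of shared suffixes and 0.0781 when GN+Captopril stood in for its GN array. The gap between subunits there was −0.12 with means. Members at least 1.5-fold higher in GN on water numbered 2 of 14 without shared suffixes (all genes 19.0%), 0 of 45 with Saline+Captopril as baseline (6.31%), and 1 of 45 at a 2-fold threshold (10.3%). With probe sets of several symbols added as units of their own, 21 of 135 units were higher (19.6%), a larger set and not a larger share of members. Members at least 1.5-fold lower in GN on water numbered 0 with a filter at the 80th percentile (12.9%) or without paralogs (15.3%). They numbered 2 with the mean (14.8%) or the lowest probe set of a gene (17.8%). For captopril in saline mice, members higher numbered 0 at the 80th percentile (14.0%). They numbered 1 after quantile (13.9%) or cyclic loess scaling (14.7%) or at 2-fold (6.43%). They numbered 6 at the lower fold threshold, a log2 difference of 0.32 (26.6%), and 9 of 135 with the added probe sets (15.6%). Members lower numbered 1 at the 80th percentile (6.27%), with the mean of probe sets (9.12%), or without shared suffixes (10.7%) or paralogs (10.2%). They numbered 0 at 2-fold (2.08%), 5 at the lower fold threshold (23.2%) and 6 of 135 with the added probe sets (10.2%). For captopril in GN mice, members higher numbered 0 at the 80th percentile (5.58%), without paralogs (3.7%) or at 2-fold (1.39%). For GN on water, 17 of 45 members were higher (all genes 30.2%) and 3 lower (27.8%) at the lower fold threshold, and 3 of 135 were lower with the added probe sets (15.3%). Rps25 had −0.0421 for GN on water with Saline+Captopril as baseline, and Rps4x −0.27 with the mean of its probe sets. The different fold thresholds and member sets change the counts by construction; the cause of the other changes was not tested. No paired analysis was possible because each group had 1 array, and for the same reason no replicate could be left out.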
